A study of Mus musculus with 18 samples.

Results

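The comparison described here set all 6 C3H/HeJ libraries against all 6 C57BL/6 libraries of a mouse heart RNA-seq series, 12 of its 18 libraries. They were chosen by the strain label alone. Each strain gave 2 sham libraries, 2 taken at day 14 of isoproterenol and 2 taken at day 21. Isoproterenol (ISO) is an agonist of beta-adrenergic receptors that loads the heart, and it was delivered from an implanted pump. Sham hearts received saline, and their labels give no day. The cells were Thy1+ cells of the heart, a population in which fibroblasts are frequent. Its label appears as Thy1+ HE and as Thy1+HE-, with HE not explained. No genotype, transgene or age beyond the strain name is given. Whether the 2 libraries of a group represent different animals is not stated, so the p-values describe the spread among libraries, and that spread may be technical.

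C57BL/6 and C3H/HeJ are inbred strains of separate origin. Within each strain all animals carry the same alleles, and the strains differ by sequence variants, deletions and gene copies spread over the genome. Some differences are textbook traits: C57BL/6 has a black coat from a nonagouti allele and major histocompatibility (H2) haplotype b, while C3H/HeJ has an agouti coat, haplotype k and a Toll-like receptor 4 that does not respond to lipopolysaccharide. The model used here, condition plus strain, asks for the part of a strain difference that is held in sham and ISO hearts alike. The mouse genome used by the authors, mm10, derives from C57BL/6, so variants of C3H/HeJ can lower the count of a gene or move its reads to a similar gene.

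Totals ran from 10453121 to 26280685 counts in the 12 libraries. Thy1, the sorting marker, was present in each, and the resting fibroblast list summed to 82456 to 129233 CPM (counts scaled to a common library size). The least typical library was C3H/HeJ sham replicate 1, whose median correlation with the other libraries was 0.783. C3H/HeJ ISO day 21 replicate 1 held more endothelial, macrophage and cardiomyocyte marker RNA than the other 5 C3H/HeJ libraries.

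Among 12641 genes tested, 159 (1.26%) differed between the strains at an adjusted p under 0.05 with condition in the model. Of these, 101 (0.799% of genes tested) were higher in C3H/HeJ and 58 (0.459%) were lower. All fold changes are log2 values of C3H/HeJ minus C57BL/6 from edgeR with their standard error (SE), and all adjusted p-values are from edgeR's quasi-likelihood test with Benjamini-Hochberg adjustment over the genes tested. The 6 libraries of one strain lay beyond all 6 of the other for 145 of the called genes and overlapped for 14. Over all genes tested, 308 (2.44%) showed no overlap, and 1.46% of genes tested did so with C3H/HeJ higher. Leaving out any 1 library gave 116 to 214 calls, and leaving out both C3H/HeJ libraries named above gave 153. The count was 421 by DESeq2, 349 by edgeR with no filter on low counts, 316 by limma voom with library quality weights, 93 with the ISO libraries alone and 92 with copied genes left out.

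**Figure D1:**
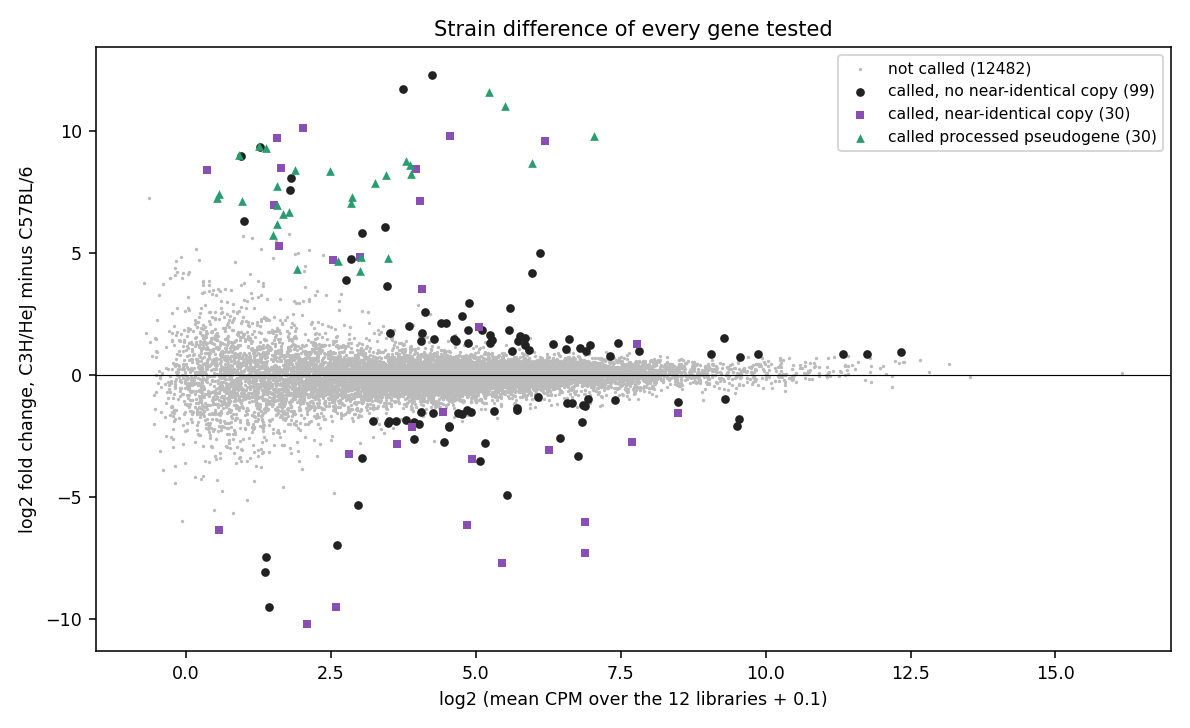
Strain difference of each gene tested (vertical axis, log2 fold change, C3H/HeJ minus C57BL/6) against its mean level (horizontal axis, log2 of CPM + 0.1). Grey points are the 12482 genes not called; black circles, violet squares and green triangles are called genes without a near-identical copy, with one, and called processed pseudogenes. All 30 green triangles lie above 0.

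Some genes had no counts at all in 1 strain. Ifi202b, an interferon-inducible DNA-binding protein of the p200 family, had 0 counts in each C57BL/6 library and 2.72, 43.4 and 76.6 CPM (lowest, median and highest) in C3H/HeJ. With 3 counts per C57BL/6 library as the floor, it was at least 209-fold higher (adjusted p = 0.00365). Gbp2b, a guanylate-binding GTPase of the interferon response, also had 0 counts in C57BL/6 and 11.8, 30.7 and 37.6 CPM in C3H/HeJ, at least 148-fold higher (adjusted p = 2.09e-06). Neither gene shares 10% or more of its 50-base stretches with other genes. On mm10, Ifi202b lies on chromosome 1 from 173962568 to 173982744 and Gbp2b on chromosome 3 from 142594847 to 142619179. Both are annotated as protein coding.

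Further genes at or near 0 in C57BL/6 encode proteins of unrelated function. Atp1a4, a sodium pump subunit best known from sperm, had 2 counts over the 6 C57BL/6 libraries and 2.17, 7.26 and 11.1 CPM in C3H/HeJ. The ratio was 347, with an exact 95% counting interval of 95.7 to 2872 (adjusted p = 0.000848). The agouti gene a, whose product blocks melanocortin receptors, had 5 counts in 1 C57BL/6 library, none in the other 5, and 2.45, 5.43 and 14.2 CPM in C3H/HeJ (log2 fold change 7.59 ± 1.27 SE, adjusted p = 0.00372). Abcc3, an efflux pump for organic anions, ran from 0 to 1.25 CPM (median 0.0314) in C57BL/6 and from 9.78 to 28.6 (median 14.3) in C3H/HeJ. All 3 of these genes were chosen for strains that did not overlap, and their levels in C3H/HeJ were modest.

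Genes expressed in both strains also differed widely. Pianp, a transmembrane ligand of the receptor PILR-alpha, had 0.189, 4.52 and 9.4 CPM in C57BL/6 and 107, 128 and 186 CPM in C3H/HeJ. Its log2 fold change was 4.98 ± 0.57 (SE, adjusted p = 0.000334). Lypd1, a small membrane-anchored protein of the Ly6 fold, had 4.07, 5.33 and 16 CPM in C57BL/6 against 96.2, 117 and 151 CPM (log2 fold change 4.16 ± 0.35 SE, adjusted p = 2.09e-06). Both genes were chosen for strains that did not overlap, and their calls held when any 1 library was left out. Saa3, a serum amyloid A protein of the acute phase, had a median of 1.6 CPM in C57BL/6 (range 0.177 to 4.38) and 13.9 CPM in C3H/HeJ (range 9.29 to 37), with adjusted p = 0.00149. H2-T24, a class Ib gene of the H2 region, had a median of 0.963 CPM in C57BL/6 and 13 CPM in C3H/HeJ (adjusted p = 0.0319). Its call was lost when any 1 of 8 libraries was left out (adjusted p up to 0.0991).

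Of genes lower in C3H/HeJ, Pttg1, the securin that restrains separase until chromosomes part, had 66, 85.7 and 120.4 CPM in C57BL/6 and 0, 3.0 and 5.95 CPM in C3H/HeJ. The log2 fold change was -4.91 ± 0.67 (SE, adjusted p = 0.00153). Rab6b, a small GTPase of Golgi transport, had 40.1, 65.3 and 76.8 CPM in C57BL/6 and 0.0795, 5.45 and 10.2 CPM in C3H/HeJ, a log2 fold change of -3.53 ± 0.60 (SE, adjusted p = 0.00677). Both genes were thus expressed at a clear level in each C57BL/6 library. A lack of overlap between the strains was a condition of their choice.

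A second set of lower genes was close to 0 in C3H/HeJ and modest in C57BL/6. Trim12a, a TRIM protein of the Trim5 group, had 5.29, 12.7 and 16.8 CPM in C57BL/6 and 1 count in all of C3H/HeJ. The ratio was 1119 in favour of C57BL/6, with an exact 95% counting interval of 201 to 44246 (adjusted p = 7.52e-06). Its count is uncertain, since 10.5% of its 50-base stretches also occur in other genes, counted jointly. Olfr1033, annotated as an olfactory receptor, had 0 counts in each C3H/HeJ library and a median of 5.49 CPM in C57BL/6, at least 25.4-fold lower (adjusted p = 0.00655). Cst9, a cystatin, had 2 counts in C3H/HeJ and a median of 4.44 CPM in C57BL/6 (adjusted p = 0.00474). Eps8l1, a relative of the actin regulator Eps8, had 4.92, 7.84 and 35.2 CPM in C57BL/6, and its highest C3H/HeJ library reached 0.60 CPM (adjusted p = 0.0044). Acp1, a small tyrosine phosphatase that shares sequence with other genes, had medians of 13.6 and 1.5 CPM (adjusted p = 0.0299), a call lost when any 1 of 7 libraries was left out (adjusted p up to 0.0876).

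**Figure D2:**
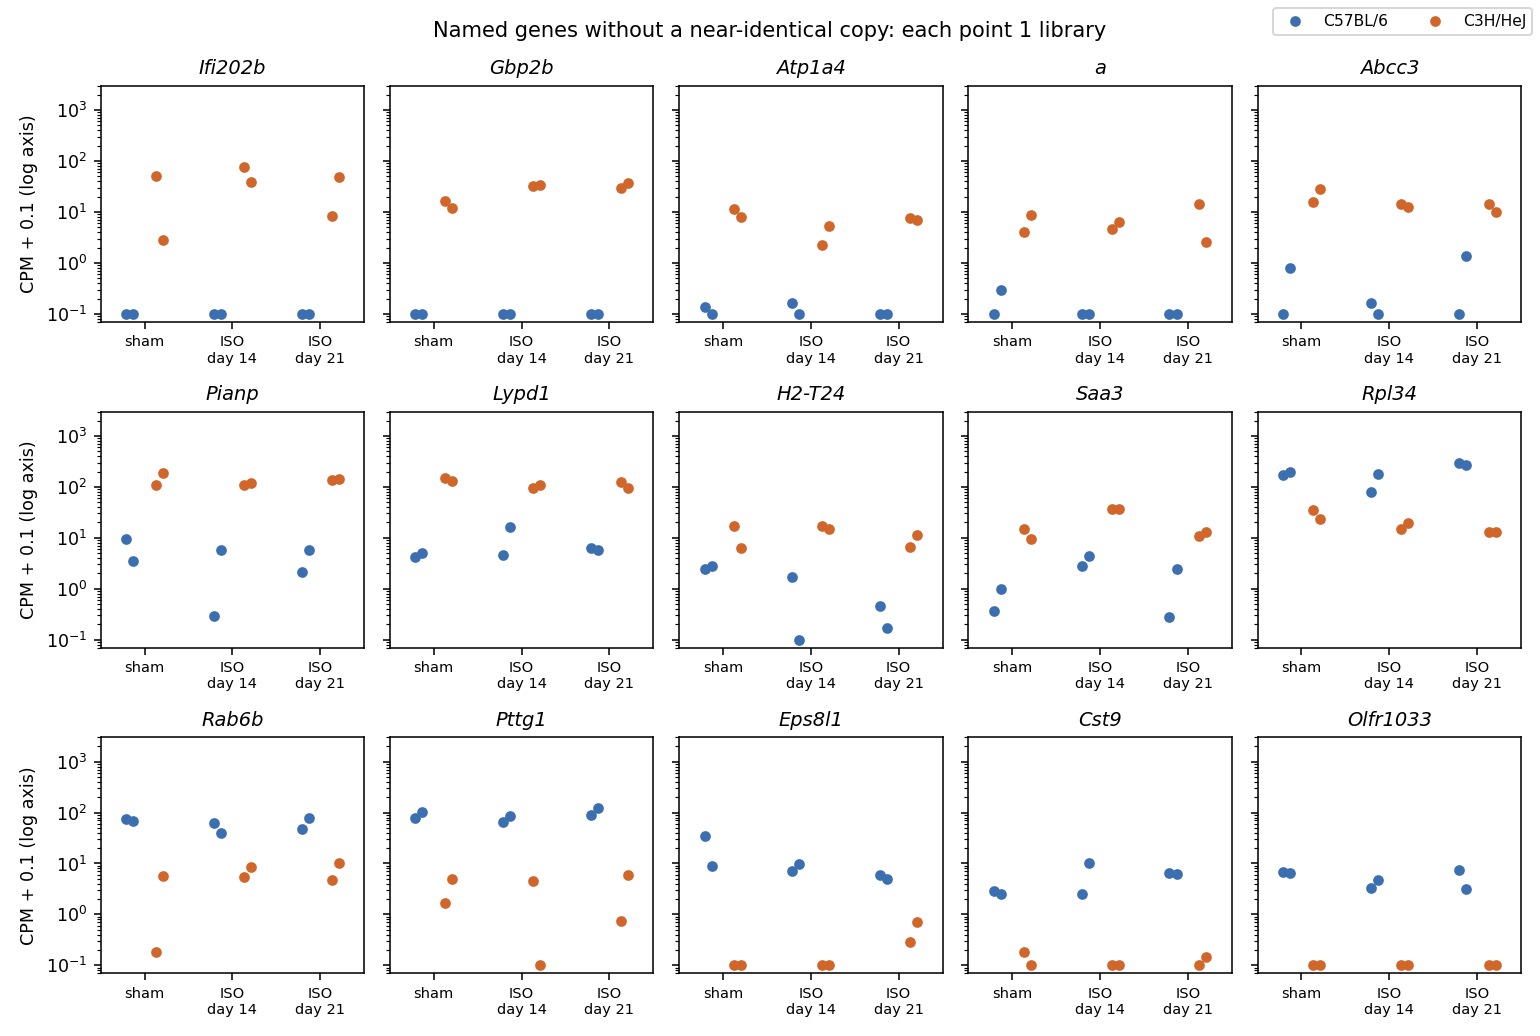
Levels in CPM + 0.1 (log axis) by condition, of the 15 genes without a near-identical copy among those named for the size of their strain difference (called, protein coding, strains not overlapping, a mean of at least 5 CPM in the higher strain, no predicted or clone name). Each point is 1 library. The 9 genes higher in C3H/HeJ come first and the 6 lower genes follow. By the choice of genes, no panel has overlapping strains.

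Genes with near-identical copies made up a large share of the calls. A gene was counted as having one where 10% or more of its distinct 50-base stretches, the length of a read here, also occur in other genes. Of 761 such genes tested, 55 were called (7.23%), against 104 of the others (0.875%). Called genes with a copy were higher in C3H/HeJ in 40 cases and lower in 15, and those without a copy in 61 and 43 cases. How reads that match several genes were counted is not given in the sources used here.

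In 5 protein-coding genes that were called lower, a close copy was called higher: Rps18, Rpl26, Rps3a1, Hspa8 and Mrpl27. The stretches of coding sequence below, from the GENCODE M21 transcripts, show for the first 4 how few bases separate gene and copy. Each stretch is 80 bases of the coding strand, and the capitals mark the bases at which the gene and its copy differ.
Rps18: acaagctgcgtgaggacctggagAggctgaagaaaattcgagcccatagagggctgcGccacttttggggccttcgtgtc
Gm10260: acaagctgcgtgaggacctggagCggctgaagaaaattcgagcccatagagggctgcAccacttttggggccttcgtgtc
Rpl26: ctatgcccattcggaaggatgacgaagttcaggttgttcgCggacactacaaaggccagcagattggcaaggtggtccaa
Gm15772: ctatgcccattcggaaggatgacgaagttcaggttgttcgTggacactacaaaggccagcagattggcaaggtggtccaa
Rps3a1: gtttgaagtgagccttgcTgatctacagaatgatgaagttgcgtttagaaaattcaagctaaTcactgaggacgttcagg
Rps3a3: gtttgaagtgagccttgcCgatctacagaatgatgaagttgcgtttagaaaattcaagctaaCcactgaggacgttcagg
Hspa8: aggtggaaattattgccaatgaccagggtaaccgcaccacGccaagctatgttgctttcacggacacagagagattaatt
Gm15459: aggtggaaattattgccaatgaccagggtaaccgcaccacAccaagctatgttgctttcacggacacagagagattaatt

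The coding sequence of Rps18, a protein of the small ribosomal subunit, differed from that of Gm10260 at 4 of 459 bases. Rpl26, of the large subunit, differed from Gm15772 at 2 of 438, and Rps3a1, of the small subunit, from Rps3a3 at 9 of 795. Hspa8, the constitutive Hsc70 chaperone, differed from Gm15459 at 5 of 1941. Of the 50-base windows of these coding sequences, 60.2%, 74.3%, 49.6% and 86.8% were identical in both members of the pair. Rps18 lies on chromosome 17 from 33951999 to 33956001 of mm10 and Gm10260 on chromosome 13 from 97760072 to 97760632. Rps3a1 lies on chromosome 3 from 86137940 to 86142702 and Rps3a3 on chromosome 13 from 108670603 to 108671397. Gm10260 is annotated as protein coding, and the other 3 copies as processed pseudogenes, which arise when a spliced RNA is copied back into the genome.

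Within each pair the strains held opposite members. Rps18 had 23.8, 46.8 and 99.8 CPM in C57BL/6 and 0, 0.385 and 2.45 CPM in C3H/HeJ. Gm10260 had 0.0381, 0.17 and 0.386 CPM in C57BL/6 and 106, 132 and 244 CPM in C3H/HeJ. The log2 fold changes were -6.15 ± 0.79 and 9.6 ± 0.46 (SE). The lowest C57BL/6 library lay above the highest C3H/HeJ library for Rps18 and the reverse held for Gm10260.

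The same crossing was seen in the other 3 pairs. Rpl26 had medians of 201 CPM in C57BL/6 and 1.41 CPM in C3H/HeJ, and Gm15772 had 0 and 68.6 CPM. Rps3a1 went from 72.4 to 0.312 CPM and Rps3a3 from 0.30 to 247 CPM. Hspa8 went from 363 to 53 CPM, so it kept a clear level in C3H/HeJ, and Gm15459 from 0.35 to 123 CPM. No strain overlapped the other in any of these 8 genes, which for Rps18, Rpl26 and Rps3a1 was a condition of their choice. Gm10260, Gm15772, Rps3a3 and Gm15459 were near 0 in C57BL/6. They passed the filter on low counts only where every C3H/HeJ library reached its minimum, so their lack of overlap was largely set by the filter. In KK/HlJ, the strain of the series' remaining libraries, the medians of Rps18, Rpl26, Rps3a1 and Hspa8 were 49.9, 140.1, 48 and 319 CPM, each far above C3H/HeJ. The KK/HlJ medians of Gm10260, Gm15772, Rps3a3 and Gm15459 were 0.263, 23.6, 0.168 and 0.296 CPM. Their highest KK/HlJ libraries had 1.68, 77.7, 3.04 and 81.1 CPM.

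**Figure D3:**
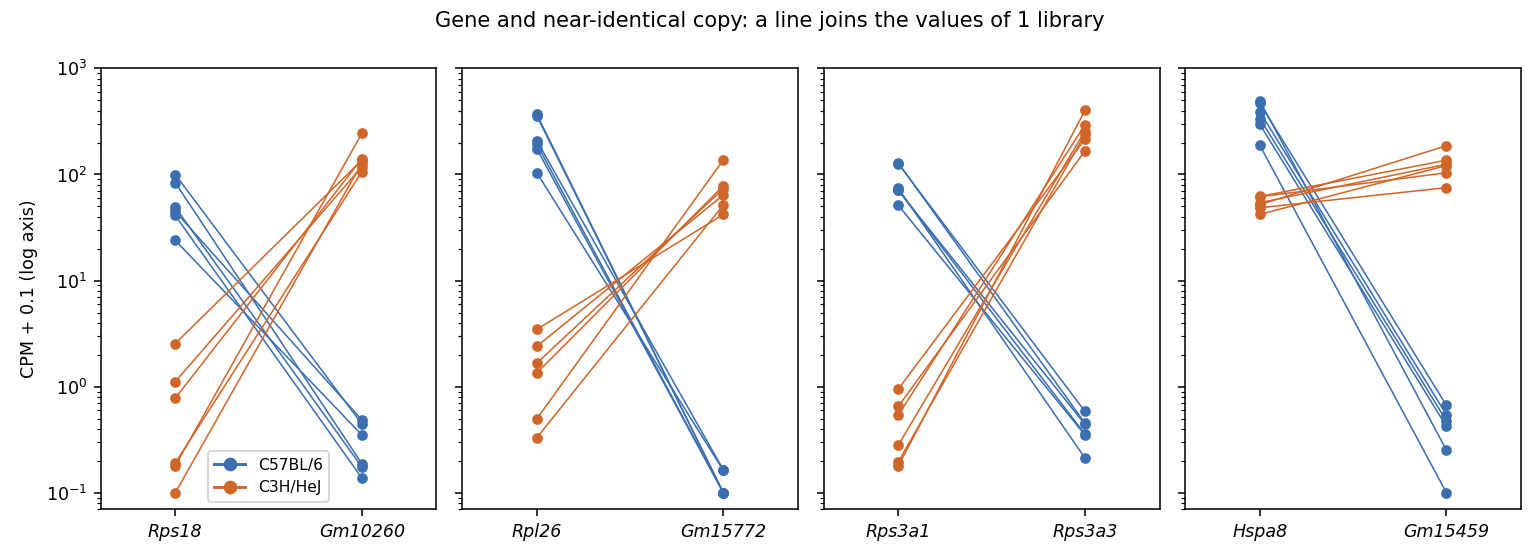
Levels in CPM + 0.1 (log axis) of 4 genes (left in each panel) and their near-identical copies (right). A line joins the 2 values of 1 library; the 6 C57BL/6 lines fall from gene to copy, and the 6 C3H/HeJ lines rise.

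Summing the counts of genes that share 50% or more of their 50-base stretches, an alternative chosen after seeing the data, changed the size of these differences and in part their direction. The Rps18 and Gm10260 family of 4 genes went from a median of 47.4 to 132 CPM, higher in C3H/HeJ by 1.45 ± 0.30 (SE, adjusted p = 0.0237). The Rps3a1 family of 5 was higher by 1.64 ± 0.26 (adjusted p = 0.00323), again against the direction of Rps3a1 itself. The Rpl26 family stayed lower at -1.59 ± 0.33 (adjusted p = 0.0265) and the Hspa8 family at -1.03 ± 0.22 (adjusted p = 0.0257), both closer to 0 than the single genes. Of 30 families that held a called gene, 12 were called after summing and 18 were not. Among the latter, Mrpl27, of the mitochondrial ribosome, was lower alone (-2.83 ± 0.60 SE, adjusted p = 0.0241) and not called with Gm6304 (adjusted p = 0.114). The call of Mrpl27 alone was lost when any 1 of 5 libraries was left out (adjusted p up to 0.077). Eno1b, a copy of the glycolytic enzyme gene Eno1, had 0 counts in C57BL/6 and a median of 5.45 CPM in C3H/HeJ, at least 31.9-fold higher (adjusted p = 0.00395), and its family of 3 was not called (adjusted p = 0.25). Over the whole table after summing, most of it single genes, 127 of 12552 rows tested were called, 76 higher and 51 lower.

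Rps2, Rpl34 and Rpl3 were ribosomal protein genes called lower with no called copy in their families. Of 76 cytosolic ribosomal protein genes tested, 0 were higher and 6 were lower, with a median log2 fold change of -0.23 beside -0.02 over all genes tested. Among all genes tested, 0.799% were higher and 0.459% lower. 58 of the 76 had a near-identical copy. Rps2 had 151, 242 and 276 CPM in C57BL/6 and 0.159, 2.16 and 12.5 CPM in C3H/HeJ, and its family of 12 gave a log2 fold change of -5.12 ± 0.48 (SE, adjusted p = 5.54e-05). Rpl34 had 78.9, 191 and 297 CPM against 12.7, 17.1 and 34.9 CPM (adjusted p = 1.03e-05), with 7.78% of its stretches shared. Rpl3 had a median of 48.4 CPM in C57BL/6 and 4.24 in C3H/HeJ (adjusted p = 0.0296), a call lost when any 1 of 8 libraries was left out (adjusted p up to 0.0928). The strains did not overlap in these 3 genes, which at least for Rps2 and Rpl34 was a condition of their choice. Whether C3H/HeJ variants in the gene bodies or reads counted elsewhere account for these values was not tested.

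Processed pseudogenes were called in 1 direction. Of 186 tested, 30 (16.1%) were higher in C3H/HeJ and 0 were lower, beside 65 higher and 56 lower among 12029 protein-coding genes. By DESeq2 and with offsets for GC content and length, 1 was lower. The mean of these 30 in C57BL/6 ran from 0 to 1.17 CPM, below 1 CPM in 29, and in C3H/HeJ from 2.67 to 261.5 CPM. None of the 30 had overlapping strains. A pseudogene near 0 in C57BL/6 passed the filter on low counts only where every C3H/HeJ library reached its minimum. This lack of overlap was thus largely set by the filter. The 186 tested leave out pseudogenes low in both strains, so the share of 16.1% also depends on the filter. A protein-coding gene shared 10% or more of its windows with 21 of them. Of those partners 4 were called lower, 0 higher and 17 were not called, and 15 had a negative log2 fold change (median -0.61). Gm13394, whose partner is Gapdh, went from a median of 0.019 CPM in C57BL/6 to 89.3 in C3H/HeJ. Gapdh itself stood at medians of 1.81 and 2.0 CPM in C57BL/6 and C3H/HeJ and is thus hardly counted in these files. At a mean of at least 5 CPM, 16 pseudogenes were called.

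The copies in C3H/HeJ include genes of complement, the cascade of blood and tissue proteases that tags cells for clearance. C1rb and C1s2 are copies of the C1r and C1s protease genes. C1rb had 0, 0.0189 and 0.322 CPM in C57BL/6 and 20.1, 29.8 and 42 CPM in C3H/HeJ (log2 fold change 8.42 ± 0.64 SE, adjusted p = 8.98e-07). C1s2 had 0.126, 3.14 and 5.56 CPM against 16.7, 32.5 and 41.3 CPM (adjusted p = 0.00414). The main genes were not called: C1ra had medians of 209 and 305 CPM (adjusted p = 0.412) and C1s1 of 325 and 413 CPM (adjusted p = 0.694). C1ra and C1rb summed gave 0.52 ± 0.16 (adjusted p = 0.191).

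C4b, the complement protein cleaved by C1s, went the other way. Its C57BL/6 libraries had 90.7, 126 and 223 CPM and its C3H/HeJ libraries 7.8, 16 and 23.5 CPM, a log2 fold change of -3.05 ± 0.30 (SE, adjusted p = 1.34e-05). C4b shares 34.6% of its stretches with C4a, and its call held in each alternative that tested it. Of 28 complement and coagulation-linked genes tested, 2 were higher, 1 was lower and 25 did not pass, with a median of -0.10. The shares over all genes tested were 0.799% higher and 0.459% lower. C3, the central protein of the cascade, had medians of 4194 and 6501 CPM in C57BL/6 and C3H/HeJ (adjusted p = 0.394).

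Interferon-linked genes were called in both directions. Of 8 p200 family genes, Ifi202b was higher and Ifi211 lower, beside 0.799% higher and 0.459% lower over all genes tested. Ifi211 had 14.6, 21.9 and 36.9 CPM in C57BL/6 and 1.91, 3.78 and 12.4 CPM in C3H/HeJ (adjusted p = 0.0433). It shares 72.8% of its stretches with other genes, and its call was lost when any 1 of 10 libraries was left out (adjusted p up to 0.128). Of 10 guanylate-binding proteins and immunity-related GTPases tested, Gbp2b was called, and the median of the list was -0.55. Of 36 interferon-stimulated genes, 0 were higher and 1, Cxcl10, was lower (median -0.20). This chemokine, which draws T cells, had 8.41, 25.1 and 43 CPM in C57BL/6 and 0.637, 4.09 and 8.11 CPM in C3H/HeJ, lower in each C3H/HeJ library (adjusted p = 0.00326). Cxcl10 was also the 1 gene called of 29 chemokines, cytokines and alarmins.

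Class I genes of the H2 region, which present peptides to T cells, differed in both directions. H2-D1, a classical class I gene, had 352, 519.6 and 743 CPM in C57BL/6 and 144, 175 and 228 CPM in C3H/HeJ (log2 fold change -1.56 ± 0.20 SE, adjusted p = 0.000347). H2-K1, the other classical gene measured, had medians of 537 and 442 CPM (adjusted p = 0.542). H2-Q2 had 0, 0.0629 and 3.19 CPM in C57BL/6 and 27.2, 30.7 and 37.7 CPM in C3H/HeJ (adjusted p = 0.00413). H2-Q10, a secreted class Ib molecule, had medians of 0.339 and 11.1 CPM (adjusted p = 0.0288), lost when any 1 of 7 libraries was left out (adjusted p up to 0.0875). H2-D1, H2-Q2 and H2-Q10 each share sequence with other genes, and haplotypes b and k differ in sequence, so their counts are uncertain. Of 19 class I and peptide loading genes tested, 2 were higher (H2-Q10 and H2-T24), 1 was lower (H2-D1) and 16 did not pass. H2-Q2 was not in that list. For all genes tested the shares were 0.799% higher and 0.459% lower. B2m, the shared light chain, had medians of 1241 and 1185 CPM (adjusted p = 0.941). Of 5 class II genes tested, 0 were called. H2-Ea-ps, a class II alpha gene whose promoter is deleted in haplotype b, was too low to be tested, with 2 counts in all C57BL/6 libraries and 127 in all C3H/HeJ libraries.

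The Ly6 family codes for small lipid-anchored surface proteins. Of 9 members tested, 4 were higher in C3H/HeJ, 0 were lower and 5 did not pass, with a median of 0.70. Among all genes tested, 0.799% were higher and 0.459% lower. Ly6c2 had 0, 0.0379 and 0.0885 CPM in C57BL/6 and 1.91, 5.32 and 8.5 CPM in C3H/HeJ (adjusted p = 0.00343), and Ly6c1 had 73.2, 127 and 181 CPM against 186, 317 and 389 CPM (adjusted p = 0.00605). The pair shares sequence, so a read can fit either gene. Ly6k had medians of 5.26 and 19.9 CPM (adjusted p = 0.0254) and Ly6e of 613 and 1107 CPM (adjusted p = 0.0471), both without overlap. Those calls were lost when any 1 of 6 libraries was left out for Ly6k (adjusted p up to 0.0774) and any 1 of 11 for Ly6e (up to 0.155). Ly6a, the Sca-1 antigen, had medians of 935 and 1799.5 CPM (adjusted p = 0.184). Gimap6, a GTPase known from lymphocytes, had 7.35, 20.4 and 40.7 CPM in C57BL/6 and 48, 72.7 and 113 CPM in C3H/HeJ (adjusted p = 0.0102; 0.0507 without C57BL/6 ISO day 21 replicate 2).

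Most genes of the elastic fibre, collagen and laminin lists did not pass the test. The few that passed were higher in C3H/HeJ, as were 101 of all 159 called genes. Of these few, only Fbln7 kept its call when any 1 library was left out. Elastic fibres are built from elastin on a scaffold of fibrillins, with fibulins and latent TGF-beta binding proteins attached. Of 19 genes of the elastic fibre list, 3 were higher, 0 were lower and 16 did not pass, with a median of 0.21. The shares over all genes tested were 0.799% higher and 0.459% lower. Fbln7, a fibulin, had 7.38, 9.32 and 21 CPM in C57BL/6 and 41.2, 83.6 and 119 CPM in C3H/HeJ (log2 fold change 2.74 ± 0.29 SE, adjusted p = 3.48e-05). Fbln1 had 2016, 2387 and 3065 CPM against 3587, 4447 and 5676 CPM (0.87 ± 0.17 SE, adjusted p = 0.0129). Both fibulins were higher in each C3H/HeJ library than in any C57BL/6 library. The Fbln7 call held in each alternative run. The Fbln1 call depended on replicate 1 of C3H/HeJ at day 14 and on replicate 1 at day 21, being lost without either (adjusted p up to 0.0556). Ltbp3, which holds latent TGF-beta in the matrix, had medians of 577 and 962 CPM without overlap (adjusted p = 0.028), a call lost when any 1 of 9 libraries was left out (up to 0.102). Eln, elastin itself, had medians of 603 and 601 CPM and Fbn1 of 1619 and 1710.5 CPM, with adjusted p-values of 0.99 and 0.957.

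Of 17 fibrillar and associated collagen genes, Col1a1 alone was called. It had 2039, 3839 and 4661 CPM in C57BL/6 and 3842, 6512 and 9363 CPM in C3H/HeJ, so the strains overlapped (log2 fold change 0.92 ± 0.20 SE, adjusted p = 0.0267). The call was lost when any 1 of 8 libraries was left out (adjusted p up to 0.108). Col3a1, its partner in fibrils, had medians of 6634 and 10551 CPM (adjusted p = 0.568). Of 26 basement membrane and microfibrillar collagens and laminins, Col4a6 alone was called, with 33, 38.9 and 50.4 CPM in C57BL/6 and 52.9, 83.3 and 101 CPM in C3H/HeJ (adjusted p = 0.019, lost when any 1 of 6 libraries was left out, up to 0.0779). None was called by edgeR among 28 collagen processing enzymes, 20 proteoglycans, 32 activated fibroblast and matricellular genes, 23 matrix proteases and inhibitors, 34 TGF-beta and BMP genes and 24 serpins and protease inhibitors. At an unadjusted p under 0.05 those 6 lists held 8, 6, 8, 8, 5 and 7 genes, in that order. Over all 12641 genes tested, 1305 were under that threshold. Postn, the periostin gene that activated fibroblasts express, had 293, 870.1 and 2017 CPM in C57BL/6 and 235, 1454 and 2374 CPM in C3H/HeJ (adjusted p = 0.703). Frzb, a secreted antagonist of Wnt, was the 1 gene called of 32 Wnt genes, with 66.1, 105 and 118 CPM against 87.8, 275 and 352 CPM (1.29 ± 0.21 SE, adjusted p = 0.00311). Its strains overlapped.

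Among 28 resting fibroblast genes, 1 was higher, 2 were lower and 25 did not pass. For all genes tested the shares were 0.799% higher and 0.459% lower. Dpep1, a membrane dipeptidase, was lower in each C3H/HeJ library. It had 729, 1282 and 1619 CPM in C57BL/6 and 210.2, 239.7 and 397 CPM in C3H/HeJ, a log2 fold change of -2.09 ± 0.21 (SE, adjusted p = 1.84e-05) that held in each alternative run. Mgst1, a microsomal glutathione transferase, had 142, 218 and 315 CPM against 62.9, 122 and 124 CPM (adjusted p = 0.0163; 0.0534 without C3H/HeJ ISO day 21 replicate 1). Genes that define cardiac fibroblasts were not called. Pdgfra, the PDGF receptor of fibroblasts, had medians of 572 and 589.5 CPM (adjusted p = 0.987), and Tcf21, their transcription factor, 355 and 318 CPM (adjusted p = 0.835). Thy1 had 135, 312 and 355 CPM in C57BL/6 and 263, 330.0 and 477 CPM in C3H/HeJ (adjusted p = 0.736).

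A few genes of metabolism and growth were called, in lists most of whose members did not pass. Ccnd1, cyclin D1, which drives entry into the cell cycle, was the 1 gene called of 18 cyclins and kinase inhibitors. It had 119.9, 167 and 261 CPM in C57BL/6 and 18.1, 55.4 and 76.8 CPM in C3H/HeJ (log2 fold change -1.92 ± 0.31 SE, adjusted p = 0.00317). Apoe, a carrier of cholesterol, had 1434, 1799.9 and 2342 CPM against 2679, 3433 and 3849.6 CPM (adjusted p = 0.0119; 0.0511 without C57BL/6 sham replicate 2). Neither gene's strains overlapped. Alad, the heme synthesis enzyme that varies in copy number among inbred strains, had 13.7, 30.7 and 37.4 CPM against 58.6, 66.6 and 109 CPM (adjusted p = 0.00977). Fabp5, a fatty acid binding protein, had medians of 15.2 and 1.19 CPM with overlap (adjusted p = 0.0461), and Cyp4b1, a monooxygenase, 6.88 and 25.8 CPM without overlap (adjusted p = 0.047). Those calls were lost when any 1 of 10 libraries was left out for Fabp5 and any 1 of 9 for Cyp4b1 (adjusted p up to 0.129 and 0.18). No gene was called by edgeR among 88 oxidative phosphorylation genes, 31 receptors of stress hormones, 24 immediate-early genes, 14 insulin-like growth factor genes and 270 genes named Zfp, of which 2, 5, 3, 0 and 6 had an unadjusted p under 0.05. Over all 12641 genes tested, 1305 had an unadjusted p under 0.05. Of 27 heat shock chaperones, Hspa8 alone was called.

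Called genes outside these lists, chosen after their values were seen, include pairs of neighbouring genes. On chromosome 2 of mm10, Duoxa1 lies from 122302191 to 122313730 and Duox1 from 122315672 to 122347972. Duox1, an enzyme that makes hydrogen peroxide, and Duoxa1, the factor that matures it, were both higher (1.47 ± 0.24 and 1.61 ± 0.24 SE, adjusted p = 0.00362 and 0.00149). Duox1 had 37.8, 45.7 and 76.4 CPM in C57BL/6 and 90.4, 144 and 189 CPM in C3H/HeJ. Steap3, a ferric reductase, had 194, 329 and 435 CPM against 755, 904 and 1115 CPM (adjusted p = 0.000632). Matn4, a matrilin of the matrix, rose by 2.43 ± 0.30 (SE, adjusted p = 0.000234). Colec11, a collectin of the lectin pathway of complement, had 66.8, 136 and 329.6 CPM in C57BL/6 and 8.38, 22.2 and 54.4 CPM in C3H/HeJ (adjusted p = 0.00726). Ang and Rnase4, secreted ribonucleases that share a locus and overlap in the annotation, were lower, with log2 fold changes of -2.77 ± 0.39 and -1.0 ± 0.17 (SE, adjusted p = 0.000885 and 0.00388), and reads in their overlap can be counted for either.

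Several genes often named for strain differences were not called. Tlr4, which carries the C3H/HeJ mutation in its coding sequence, had 8.37, 40.1 and 67.2 CPM in C57BL/6 and 16.7, 25.5 and 44.6 CPM in C3H/HeJ (adjusted p = 0.818). Nnt, the mitochondrial transhydrogenase that is deleted in part in the C57BL/6J substrain, had 16.7, 27.9 and 83.9 CPM against 5.89, 54.4 and 64.4 CPM (adjusted p = 0.949). The labels name no C57BL/6 substrain, and the deposited gene counts do not resolve exons. Glo1, a detoxifying enzyme with a copy number variant in inbred mice, had medians of 48.1 and 55.9 CPM (adjusted p = 0.629). Xist, expressed from the inactive X chromosome of females, was at 17.5 CPM or more in all 12 libraries (adjusted p = 0.741). For these 4 genes the strains overlapped. Of 21 genes known as polymorphic between inbred strains, 3 were higher, 1 was lower and 17 did not pass, with a median of 0.07. The shares over all genes tested were 0.799% higher and 0.459% lower.

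The strain difference had the same sign in sham, ISO day 14 and ISO day 21 for all 159 called genes. These genes were called on the same libraries, so agreement in sign and in the separation below was largely set by the calling. With 2 libraries a strain, both C3H/HeJ libraries lay beyond both C57BL/6 libraries on that side for 157 genes in sham, 158 at day 14 and 159 at day 21. Tested within conditions, 32 genes were called in sham (0.253% of genes tested), 22 at day 14 (0.174%) and 31 at day 21 (0.245%). Of these, 30, 22 and 28 were also called by the strain term. Each count depended on single libraries. Without C3H/HeJ sham replicate 2 the sham, day 14 and day 21 counts were 712, 35 and 151, and without C3H/HeJ sham replicate 1 the day 21 count was 172. Leaving out a library of the condition itself gave as few as 10 in sham (without C57BL/6 sham replicate 1), 10 at day 14 (without C3H/HeJ ISO day 14 replicate 1) and 11 at day 21 (without C57BL/6 ISO day 21 replicate 1).

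Fits to other sets of libraries ended some calls of named genes. In a fit of the 8 ISO libraries alone, which gave 93 calls, the genes no longer called were Rps18, Pttg1, Ly6c2, Eno1b, H2-Q2, Eps8l1, Ly6c1, Olfr1033, Rgs5, Alad, Apoe, Fbln1, Mgst1, Col4a6, Ly6k, Col1a1, Ltbp3, H2-Q10, Acp1, Fabp5, Cyp4b1 and Ly6e, and each kept its direction. With all 18 libraries of the series in the fit, which gave 114 calls, the genes no longer called were Rps2, Cxcl10, C1s2, Cst9, Olfr1033, Apoe, Upk1b, Ly6k, H2-Q10, Acp1, H2-T24, Ifi211, Fabp5 and Cyp4b1. Without C3H/HeJ sham replicate 1 and ISO day 21 replicate 1 together, the calls of Fbln1, Mgst1, Ltbp3, H2-T24, Ly6k, Cyp4b1 and Ly6e were lost. RLE scaling ended the calls of Cyp4b1 and Ly6e, offsets for GC content and length those of Mgst1, Ltbp3 and Ly6e, limma voom that of H2-T24, and a mean of at least 5 CPM those of Fabp5, Ifi211, Cyp4b1 and Ly6e.

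The test of a strain difference that varies with condition called 0 genes by edgeR, with 883 (6.99%) at an unadjusted p under 0.05 and a lowest adjusted p of 0.587. DESeq2 called 64, and edgeR without a filter on low counts 131. Without C3H/HeJ sham replicate 2 it called 496. Among the 159 called genes, 16 had an unadjusted interaction p under 0.05. Gimap6 and Ccnd1, picked after their values were seen, had fitted differences that varied between conditions. The log2 fold change of Gimap6 was 1.1 in sham, 1.35 at day 14 and 3.2 at day 21, and that of Ccnd1 -2.94, -1.89 and -0.93. Neither passed the interaction test (adjusted p = 0.591 and 0.587). By contrast, Fbln7 stood at 2.86, 2.7 and 2.68.

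**Figure D4:**
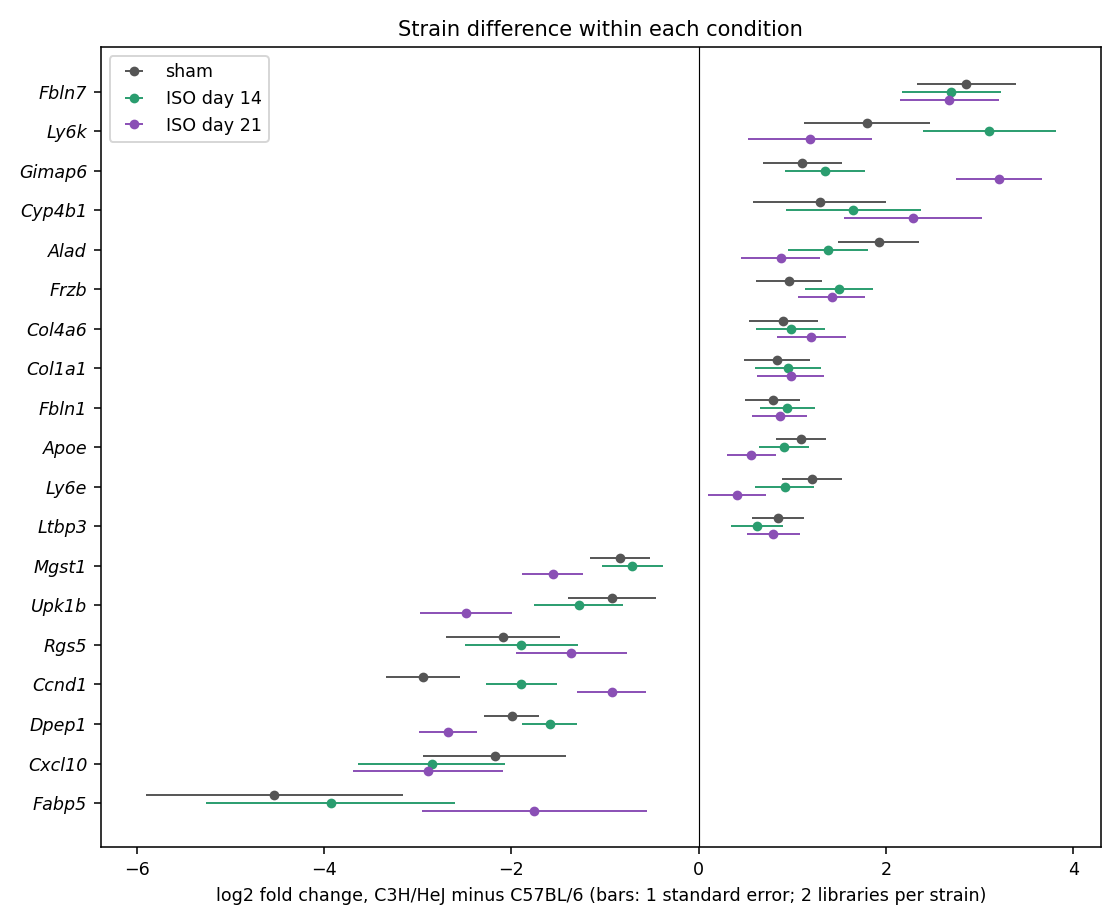
Log2 fold change, C3H/HeJ minus C57BL/6, of 19 called genes of the gene lists without a near-identical copy, in sham (grey), ISO day 14 (green) and ISO day 21 (violet). Points are fitted values from 2 libraries a strain and bars are 1 SE. Each gene keeps its sign in all 3 conditions, having been called over these same libraries.

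Called genes often lay near each other. Of 97 called genes that have no near-identical copy and are not pseudogenes, 24 (24.7%) had another within 500 kb, against 902 of 11802 tested genes of the same kind (7.64%). On chromosome 11, Wfikkn2, Abcc3, Spata20 and Col1a1 lie in that order from 94235956 to 94953042 of mm10, and all were higher in C3H/HeJ. Mrpl27, which has a near-identical copy, lies between Spata20 and Col1a1 and was called lower (-2.83 ± 0.60 SE, adjusted p = 0.0241). Wfikkn2, a secreted inhibitor of myostatin, rose by 2.12 ± 0.32 (SE, adjusted p = 0.00153), and Spata20 had 0 counts in C57BL/6 and a median of 3.12 CPM in C3H/HeJ, at least 20.4-fold higher (adjusted p = 0.0167). These neighbours were named after their values were seen. Chromosome 17, which carries the H2 region, had the highest share of called genes, 14 of 603 (2.32%). Of these, 3 had no near-identical copy and were not pseudogenes.

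The KK/HlJ libraries show which strain stood apart for a given gene. For 18 of the 159 genes all 6 KK/HlJ libraries lay on the C3H/HeJ side of the midpoint between the strains, for 48 all lay on the C57BL/6 side, and for 93 they did not all lie on the same side. Ifi202b and Gbp2b had medians of 29.7 and 25 CPM in KK/HlJ, so C57BL/6 was the strain without counts. Dpep1, C4b and H2-D1 had KK/HlJ medians of 1034, 170.4 and 507 CPM, near those of C57BL/6, so C3H/HeJ stood apart. Abcc3, Lypd1 and Pianp had KK/HlJ medians of 0, 7.94 and 1.65 CPM, again far from C3H/HeJ. Rab6b and Pttg1, at 6.81 and 6.66 CPM, were nearer C3H/HeJ.

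Marker lists of other cell types were measured beside these differences. In bulk RNA, fewer cells of a type and less RNA per cell cannot be told apart. Mesothelial and epicardial markers, of the heart's outer layer, summed to 473 to 719 CPM in C57BL/6 and 303 to 429 CPM in C3H/HeJ, with no overlap. Of 13 of these markers tested, 12 had a negative log2 fold change, with a median of -0.62, and 1 was called. That gene, Upk1b, a uroplakin of mesothelium, had 19.7, 26.7 and 45.1 CPM in C57BL/6 and 4.92, 8.83 and 14.5 CPM in C3H/HeJ (adjusted p = 0.0196). Leaving out C57BL/6 ISO day 21 replicate 1, C3H/HeJ ISO day 14 replicate 2 or C3H/HeJ ISO day 21 replicate 2 ended the call (adjusted p up to 0.0658). Msln and Upk3b, defining markers of mesothelium, had medians of 138 and 168 CPM in C57BL/6 and 57 and 95.9 CPM in C3H/HeJ, so neither was at 0.

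Pericyte and smooth muscle markers ran from 1851 to 8576 CPM in C57BL/6 and from 2407 to 4481 CPM in C3H/HeJ. Of 20 tested, Rgs5, a regulator of G protein signals and a pericyte marker, was called. It had 416, 1251 and 1883 CPM in C57BL/6 and 165, 312 and 521 CPM in C3H/HeJ, with overlap (log2 fold change -1.78 ± 0.32 SE, adjusted p = 0.00857). No gene was called by edgeR among 21 endothelial, 10 macrophage, 14 Schwann cell and 16 cardiomyocyte markers. At an unadjusted p under 0.05 these lists held 3, 1, 3 and 0 genes, beside 1305 of the 12641 genes tested. Macrophage markers had a median log2 fold change of 1.85 and ran from 10.1 to 51.4 CPM in C57BL/6 and 18.3 to 288 CPM in C3H/HeJ, the highest being ISO day 21 replicate 1. The part of these cells in the strain differences above was not tested. In fits without that library and C3H/HeJ sham replicate 1, 153 genes were called, 86 higher and 67 lower.

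**Figure D5:**
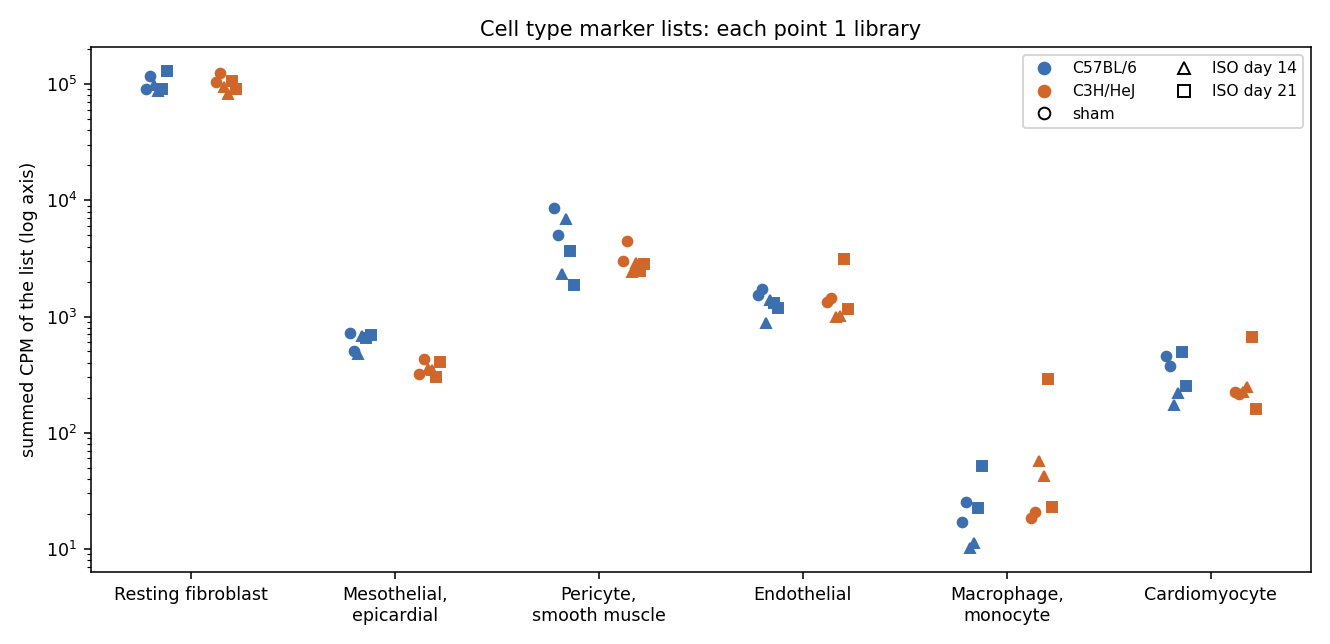
Summed CPM (log axis) of 6 marker lists in each library, C57BL/6 in blue and C3H/HeJ in orange. The strains separate in the mesothelial and epicardial list, at 473 to 719 against 303 to 429 CPM, and overlap in the other 5.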

How the data were processed

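Per the labels' protocols, sorted cells went into lysis reagent, and mRNA libraries described as stranded were read as single 50-base reads. FastQC, STAR 2.5.3a, edgeR and the mm10 build are named in the submitters' processing notes. The counter, its strand setting and how it treated reads with several matches: not given in the sources used here. Each library has a table of raw read counts per Ensembl gene, deposited by the authors without normalization. Since the strand setting is unknown, reads of a gene and of an antisense or overlapping gene cannot be separated.

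Of 53342 identifiers, 53237 matched GENCODE M21, and the 105 others held 0.00159% of counts. The strain term was tested with edgeR 4.0.16 in R 4.3.3, with TMM scaling and filterByExpr grouped by strain. The robust quasi-likelihood fit used condition plus strain and left 8 residual degrees of freedom. A fit with a term for each strain and condition (6 residual degrees of freedom) gave the interaction and within-condition tests. Calls are at a Benjamini-Hochberg adjusted p under 0.05. The SE is the fold change divided by the square root of F. CPM use TMM effective library sizes, and marker sums use total counts. A gene with 0 counts in a strain was given a floor of 3 counts per library; floors and intervals cover counting error only. Near-identical copies were found from GENCODE M21 transcripts as shared 50-base windows in either orientation, and families joined genes sharing 50% of windows. Scripts were tested on simulated data.

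Named genes are the 15 furthest apart in each direction among called protein-coding genes without overlap and with a mean of 5 CPM or more in the higher strain, leaving out predicted and clone names, up to 4 called members per gene list, and a fixed set from Thy1 to Xist. The lack of overlap of the 15 in each direction was thus set by their choice. The 40 lists, the members and the rules were chosen with earlier results of these data known. Deviations of same-numbered libraries from their group means correlated at -0.21 in sham, 0.15 at day 14 and -0.10 at day 21. With 2 libraries a group, these values cannot show whether replicate numbers mark pairs. No pair of replicates agreed within sampling noise. Alternatives were another scaling, other filters, a replicate block, all 18 libraries, ISO libraries alone, GC and length offsets, limma voom (limma 3.58.1), DESeq2 1.42.0, copies left out or summed, and leaving out libraries. Some called genes are not reported here.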

Additional observations from a re-analysis of the deposited data

Results flagged for a closer look

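Within the 6 libraries of a strain, 16 of 102 sets of values checked had 1 library far from the other 5. Chance flags about 1 in 20 groups, and the values of 1 library are not independent. C3H/HeJ ISO day 21 replicate 1 held the highest summed markers of 3 cell types: 3096 CPM for the endothelial list (next 1455), 288 CPM for the macrophage and monocyte list (next 57.1) and 668 CPM for the cardiomyocyte list (next 246). C3H/HeJ sham replicate 2 was highest for the pericyte and smooth muscle list at 4481 CPM and for Abcc3 at 28.6 CPM, and C3H/HeJ sham replicate 1 for Glo1 at 106 CPM. In C57BL/6, sham replicate 1 was highest for Eps8l1 at 35.2 CPM (next 9.60), and sham replicate 2 for Pdgfra at 743 CPM and for the agouti gene a at 0.189 CPM, the other 5 being 0. C57BL/6 ISO day 14 replicate 2 was highest for Lypd1 at 16 CPM, for T, B and NK cell markers at 17.3 CPM and for adipocyte markers at 6.01 CPM. C57BL/6 ISO day 21 replicate 1 was highest for H2-Q2 at 3.19 CPM (next 0.139), and replicate 2 of that group for macrophage and monocyte markers at 51.4 CPM. At levels near 0 in C3H/HeJ, ISO day 21 replicate 2 was highest for Eps8l1 at 0.60 CPM and ISO day 14 replicate 1 for Trim12a at 0.0402 CPM, a single count. Lypd1, Abcc3, the agouti gene, Eps8l1, H2-Q2 and Trim12a kept their calls when the library named was left out. Whether other cells entered these libraries in differing numbers was not tested.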

How the results depend on the processing

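The count of 159 genes that differ between strains became 349 with no filter on low counts, 316 with limma voom, 421 with DESeq2, 92 with copied genes left out and 93 with the ISO libraries alone. It was 158 with RLE scaling, 122 at a mean of 5 CPM, 114 with all 18 libraries, 200 with GC and length offsets and 116 to 214 with 1 library left out. A replicate block gave 146 calls and moved no within-condition count past 1.5 times. The labels do not say that the numbers pair the samples. The 30 pseudogenes became 16 at 5 CPM and 19 with ISO libraries alone. Within conditions the counts with no filter, by DESeq2 and with 1 library left out were 165, 238 and 10 to 712 in sham, 86, 127 and 10 to 36 at day 14, and 402, 374 and 11 to 172 at day 21. The interaction count of 0 became 131 with no filter, 64 by DESeq2 and 0 to 496 with 1 library left out. In fits that leave 1 library in a group, that library is assumed to vary like the others. Signs turned for 3 genes that were not called: the Tlr4 log2 fold change was 0.038 with offsets, and with 1 library left out the Pdgfra log2 fold change ran from -0.15 to 0.17 and the Nnt log2 fold change from -0.068 to 0.68. Of 53 named and called genes, 35 kept the call with any 1 library left out and 21 in all settings that tested them. Summed families were not among these settings. Genes with a near-identical copy were absent where copied genes were left out. Rps3a1 and C1rb are among the 21, though the summed Rps3a1 family was higher and C1ra and C1rb summed were not called. The cause of these changes was not tested. Depth limits the genes at or near 0 counts in 1 strain: at 0 counts the fold is a lower bound, and at 1 or 2 counts the ratio has a wide counting interval.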

Other observations

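Some genes named for strain variation were too low to be tested and are given as total counts over 6 libraries. Trim30d, a TRIM protein near Trim12a, had 295 counts in C57BL/6 and 0 in C3H/HeJ. Apoa2, a lipoprotein component, had 90 and 0 counts, and Crb1, a cell polarity gene, 48 and 0. Pglyrp1, a peptidoglycan recognition protein, had 13 and 150 counts, and Fcgr4, an Fc receptor of myeloid cells, 0 and 23. In several of these 1 library held most counts: 43 of the 48 for Crb1 and 18 of the 23 for Fcgr4. Pde6b, mutated in the retina of C3H/HeJ, had 0 counts in both strains.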
